A study of Mus musculus with 4 samples.

Results

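Chaperones are proteins that help other proteins fold and keep damaged ones from clumping. The transcripts of 10 heat shock chaperone genes were followed here in single T cells of the mouse intestine. The genes were taken by symbol, and all 10 were among the 13265 genes of the expression table: *Hspa1a*, *Hspa1b*, *Hspa2* and *Hspa8* of the HSP70 family, *Dnajb1*, *Hsph1*, *Hsp90aa1*, *Hsp90ab1*, *Hspd1* and *Hspe1*. The symbols chose the genes and no measured value did, although results of these data were already known when the list was drawn up.

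The cells were YFP+CD4+ T cells, which the study purified from small intestines of mice 7 to 8 months old and sequenced with a 10x Genomics droplet protocol. All mice carried Il17a-Cre and a reporter that turns on YFP, so that cells which had once switched on *Il17a* were marked, and the labels call them Th17 cells. TGFβR-KO mice also had floxed alleles of *Tgfbr2*, a subunit of the receptor for TGFβ, while TGFβR-CA mice had a constitutively active form of the other subunit, *Tgfbr1*, placed after a floxed stop cassette. TGFβR-WT mice had neither, and there were 2 samples of these against 1 each of TGFβR-KO and TGFβR-CA, each from a pool of mice. The Cre acts only in cells that have expressed *Il17a*, so these mice model the loss or gain of TGFβ signaling after that step.

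The table held 2975 cells labelled TGFβR-KO, 1098 labelled TGFβR-CA and 1007 labelled TGFβR-WT. The TGFβR-WT cells bore 2 kinds of name ending, giving 709 cells with one ending (the larger set) and 298 with the other (the smaller set), and the endings could not be matched to the 2 samples. They are given side by side, and no p-value is given because no condition had replicates that the table told apart. Levels are corrected UMIs (transcript molecules after the adjustment for sequencing depth that the authors applied) per 10000 corrected UMIs of all genes in the same cells. A gene with at least 200 corrected UMIs over all cells of the table was called higher or lower where its level was at least 1.5 times above or below that of both TGFβR-WT sets. It also needed a UMI in each set compared. The minimum did not hold within clusters, where a set compared could have far fewer UMIs of a gene. The intervals below are exact (Clopper-Pearson) 95% intervals and cover counting error only.

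Median corrected UMIs per cell ran from 3440 in the larger TGFβR-WT set to 3985 in the smaller one. Of 9 αβ T cell markers, all 9 were found in each set, with a summed level of 106 to 131, and CD8, γδ T cell and epithelial markers summed to at most 0.335. *Tgfbr2* was at 1.48 in cells labelled TGFβR-KO and between 1.72 and 1.78 in the other sets, and its reads may lie outside the deleted part. *Tgfbr1* was at 0.792 in cells labelled TGFβR-CA, 0.367 in the larger and 2.79 in the smaller TGFβR-WT set, so the highest level was not in the cells labelled as carrying its active form. *Xist*, transcribed from an inactive X chromosome, had no UMI under the TGFβR-KO label and in the larger TGFβR-WT set, and stood at 9.86 in the smaller set and 4.59 in cells labelled TGFβR-CA. Conditions are therefore named by the labels of the cells. Whether the names of the smaller TGFβR-WT set and the TGFβR-CA cells were exchanged was not tested. If they were, every call and every ratio below that uses the smaller set or the cells labelled TGFβR-CA would change its meaning. That includes the TGFβR-CA ratios over the larger set alone. Calls against the larger set alone are given only for the chaperone genes, over all cells and in the pretumorigenic cluster. Of all cells, 32 had a barcode that occurred in more than 1 set, 14 of these barcodes being shared by the larger TGFβR-WT set and the TGFβR-KO label.

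HSP70 proteins bind exposed stretches of unfolded protein and let go of them in a cycle driven by ATP, which J domain proteins such as Dnajb1 start and nucleotide exchange factors such as Hsph1, an HSP110 protein, complete. HSP90 proteins take over near-folded clients, among them kinases and steroid receptors, while the chaperonin Hspd1 (HSP60) and its lid Hspe1 (HSP10) fold proteins inside mitochondria. Many of these genes are switched on by the factor HSF1 under heat or protein damage, and *Hspa1a* and *Hspa1b* are also known to rise when tissue is digested warm to free its cells. This intestine was incubated warm to strip the epithelium and then digested with collagenase, at a temperature not given in the sources used here.

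HSF1 binds heat shock elements, repeats of a short unit in alternating orientation, and RefSeq promoters of the genes were searched for pairs of units (GAANNTTC or TTCNNGAA, which can overlap, on both strands). The window ran from 250 bases before to 50 after the gene start on GRCm38.p6. Entries were found for 7 of the 10 genes, *Hspa8*, *Hsp90aa1* and *Hsp90ab1* having none. Of the 7 genes, 5 held at least 1 pair of units in 1 or more of their entries. Of all 32851 promoter entries of this length 15.1% did, which counts single entries and not genes. The 5 are also not separate, since some of these genes share promoter sequence, as given below. A run of 3 units was found in 0.603% of all promoters and a run of 4 units in 0.0244%, which is 8 promoters. The promoters of the inducible HSP70 pair, of the chaperonin lid, of the HSP110 gene and of the J domain partner are shown because the cell levels of these genes are compared below, with the matches in capitals.
Hspa1a: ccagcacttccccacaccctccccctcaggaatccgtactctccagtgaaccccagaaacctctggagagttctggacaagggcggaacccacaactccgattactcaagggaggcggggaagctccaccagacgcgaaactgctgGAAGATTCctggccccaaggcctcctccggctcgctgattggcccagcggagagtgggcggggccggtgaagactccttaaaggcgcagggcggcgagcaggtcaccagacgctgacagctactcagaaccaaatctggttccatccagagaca
Hspa1b: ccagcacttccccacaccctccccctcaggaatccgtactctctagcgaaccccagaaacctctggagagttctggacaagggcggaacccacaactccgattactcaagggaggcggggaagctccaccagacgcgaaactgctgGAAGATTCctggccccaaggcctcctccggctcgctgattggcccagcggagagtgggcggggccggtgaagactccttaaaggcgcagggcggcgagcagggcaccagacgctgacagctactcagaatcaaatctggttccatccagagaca
Hspe1: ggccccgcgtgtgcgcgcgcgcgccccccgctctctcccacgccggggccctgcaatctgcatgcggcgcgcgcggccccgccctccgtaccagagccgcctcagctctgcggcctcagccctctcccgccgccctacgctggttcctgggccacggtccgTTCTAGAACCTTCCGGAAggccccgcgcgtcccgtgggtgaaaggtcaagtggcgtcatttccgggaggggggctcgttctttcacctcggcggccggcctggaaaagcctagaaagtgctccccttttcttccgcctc
Hsph1: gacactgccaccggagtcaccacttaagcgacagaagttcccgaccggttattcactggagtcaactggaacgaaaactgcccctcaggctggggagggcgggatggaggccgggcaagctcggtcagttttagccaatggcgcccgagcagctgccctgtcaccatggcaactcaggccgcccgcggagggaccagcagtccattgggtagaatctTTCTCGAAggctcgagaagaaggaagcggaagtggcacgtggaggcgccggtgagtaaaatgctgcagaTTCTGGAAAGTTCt
Dnajb1: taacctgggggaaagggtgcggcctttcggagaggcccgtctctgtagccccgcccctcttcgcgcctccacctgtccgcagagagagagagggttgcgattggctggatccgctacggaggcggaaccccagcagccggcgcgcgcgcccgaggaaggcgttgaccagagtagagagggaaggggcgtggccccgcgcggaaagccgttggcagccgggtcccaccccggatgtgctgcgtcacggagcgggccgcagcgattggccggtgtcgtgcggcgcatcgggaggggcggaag
Those of *Hspa1a* (chr17:34972107-34972406, minus strand) and *Hspa1b* (chr17:34959189-34959488, minus strand) differed at 4 of 300 positions, and each held 1 pair of units at position -104 from the gene start. The *Hspe1* window (chr1:55087898-55088197, plus strand) held a run of 4 units from position -89. *Hspd1* lies head to head with *Hspe1*, and 1 of its 2 windows shared 285 bases, and the same run, with that of *Hspe1*. The *Hsph1* window (chr5:149636287-149636586, minus strand) had a pair at position -33 and a run of 3 units from position 36. No match was found in these windows for *Dnajb1* (chr8:83607925-83608224, plus strand) and *Hspa2*. A match describes the letters of the window and is not a measured binding site.

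Over all cells, 1 of the 10 chaperone genes, *Hspa1a*, was called higher in cells labelled TGFβR-KO than in both TGFβR-WT sets, and none lower, where 2.76% of all tested genes were called higher and 5.45% lower. *Hspa1a* encodes the stress-inducible HSP70 and lies on chromosome 17 from 34969190 to 34972156 (GENCODE annotation of GRCm38, the build also called mm10). Its level was 8.61 in cells labelled TGFβR-KO, 1.94 in the larger and 3.71 in the smaller TGFβR-WT set and 2.26 in cells labelled TGFβR-CA. The level in cells labelled TGFβR-KO was thus 4.45 and 2.32 times those of the TGFβR-WT sets. It had a UMI in 28.1% of cells labelled TGFβR-KO (26.5% to 29.8%), 17.9% of the larger TGFβR-WT set (15.2% to 20.9%), 20.1% of the smaller (15.7% to 25.1%) and 20.4% of cells labelled TGFβR-CA (18.1% to 22.9%). The difference in level was therefore larger than that in the share of cells.

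The near-identical copy *Hspa1b*, on the same chromosome from 34956436 to 34959238, stood at 10.04 in cells labelled TGFβR-KO, 3.24 in the larger set, 6.97 in the smaller set and 4.31 in cells labelled TGFβR-CA. It missed the call, being 3.10 times the larger but 1.44 times the smaller TGFβR-WT set. Of the 50-base stretches of the *Hspa1a* transcript, 58.8% were also in that of *Hspa1b*, but none within their last 500 bases, so how far the reads of the copies were told apart depends on where in the transcript they fell. *Dnajb1*, which delivers unfolded protein to HSP70, showed the same order, with 3.08, 1.11, 2.12 and 1.97 in the sets in the order just used, and it too was nearer to the smaller TGFβR-WT set (1.45 times) than to the larger (2.78 times). Relative to the larger set *Hsph1* was 2.29 times and *Hsp90aa1* 1.61 times as high in cells labelled TGFβR-KO, against 1.08 and 1.15 times relative to the smaller set. *Hsp90ab1*, the constitutive HSP90, was 1.04 and 0.792 times as high, and the mitochondrial genes *Hspd1* (1.27 and 0.882 times) and *Hspe1* (1.29 and 1.45 times) also stayed inside the limits. *Hspa2*, best known from the testis, had 78 corrected UMIs in cells labelled TGFβR-KO, 15 and 4 in the TGFβR-WT sets and 14 in cells labelled TGFβR-CA, below the minimum for a call. Over the 9 genes tested, the median log2 ratio was 0.45, against -0.16 over all genes tested. The summed level of all 10 genes was 1.34 times that of all TGFβR-WT cells, but 1.66 times that of the larger and 0.952 times that of the smaller set, so its direction turned with the set it was compared with. Against the larger TGFβR-WT set alone, 6 of the 10 genes were at least 1.5 times higher in cells labelled TGFβR-KO and none lower, where 4.28% of tested genes were higher and 9.51% lower. These were *Hspa1a*, *Hspa1b*, *Dnajb1*, *Hsph1*, *Hspa8* and *Hsp90aa1*, so the comparison with the smaller set left 1 of 6. The study ran TGFβR-KO with TGFβR-WT cells in one batch and TGFβR-CA with TGFβR-WT cells in another, but the cell names do not say which TGFβR-WT set was in which. Cells labelled TGFβR-KO shared 14 barcodes with the larger set and 0 with the smaller, and like the larger set had no *Xist* UMI. Cells labelled TGFβR-CA shared 0 barcodes with either set. Which sets shared a batch was not tested, so no comparison here is given as one within a batch.

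The levels of several chaperone genes differed widely between the clusters of cells. The table names 8 clusters, and in the one the authors call pretumorigenic *Hspa1a*, *Hspa1b*, *Dnajb1* and *Hsp90aa1* were at least 1.5 times higher than over the other clusters in each of the 4 sets, where 1.57% of all tested genes were. The clusters were formed with these genes among others, so the cluster levels are descriptions. *Hspa1a* was 23.7 times higher in the pretumorigenic cluster than elsewhere among cells labelled TGFβR-KO, 32.5 times in the larger and 11.9 times in the smaller TGFβR-WT set, and 19.2 times in cells labelled TGFβR-CA. For *Hspa1b* these ratios were 20.9, 25.9, 9.66 and 14.4, and for *Dnajb1* 13.1, 6.54, 2.84 and 2.89. The inducible HSP70 genes and their J domain partner thus stood out in this cluster under every label. *Hsp90aa1*, the inducible HSP90, had ratios of 5.87, 2.71, 2.08 and 1.77. *Hsph1* reached 5.304, 4.02 and 2.505 in the first 3 sets and 1.22 in cells labelled TGFβR-CA. *Hspa8* had ratios of 3.11, 1.65, 1.45 and 1.02. *Hspd1* and *Hspe1* were high in this cluster only among cells labelled TGFβR-KO, with ratios of 2.54 and 2.93 there against values from 0.692 to 1.08 in the other sets, a difference that was not tested.

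**Figure D1:**
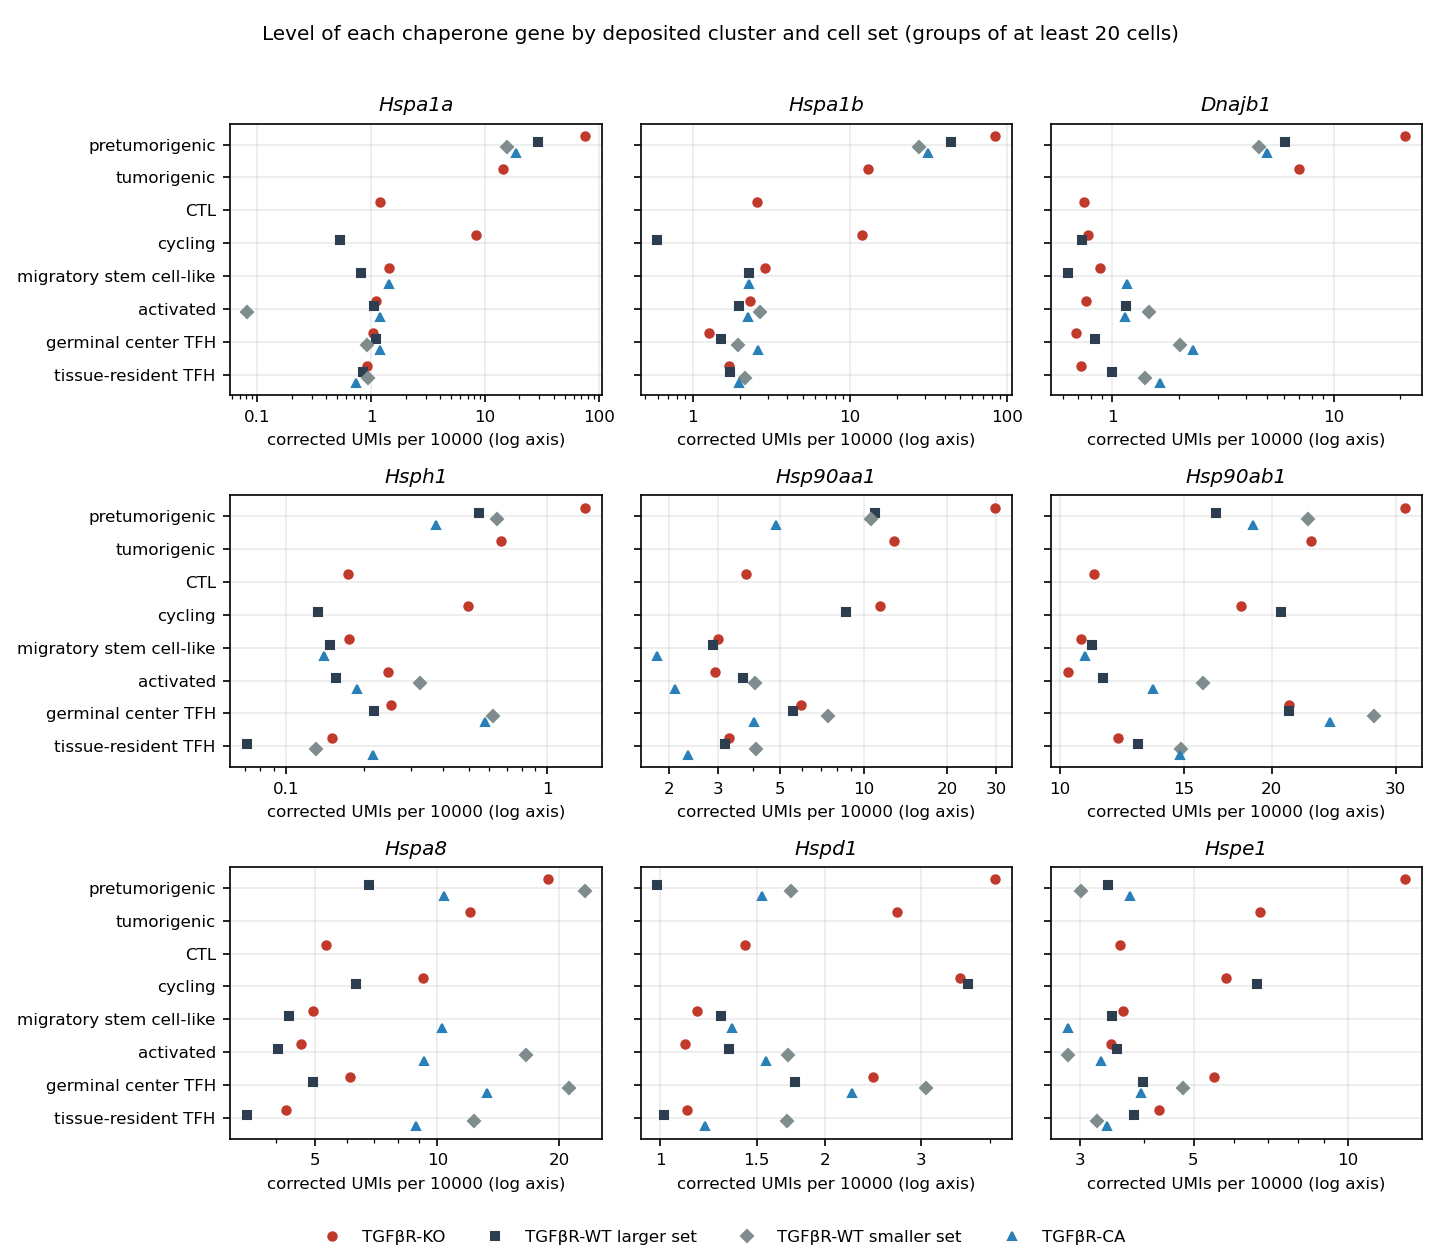
Level of 9 chaperone genes in each deposited cluster (rows) and cell set (symbols), in corrected UMIs per 10000 on log axes that differ between panels, with 1 point for each group of at least 20 cells. The pretumorigenic points of *Hspa1a*, *Hspa1b* and *Dnajb1* lie to the right of all other clusters of their set, while *Hspa8* is split by set in every TFH and activated row.

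The pretumorigenic cluster held 230 cells labelled TGFβR-KO (7.73% of that set), 27 of the larger TGFβR-WT set (3.81%), 52 of the smaller (17.4%) and 83 labelled TGFβR-CA (7.56%). It carried 66.04% of all *Hspa1a* UMIs of cells labelled TGFβR-KO. In the smaller TGFβR-WT set *Hspa1a* was 1.92 times as high as in the larger set over all cells but 0.536 times as high within the pretumorigenic cluster. The level of *Hspa1a* over all cells therefore depends on how many cells of a set fall in this cluster. With the cells of each cluster weighted by the TGFβR-WT cluster shares, *Hspa1a* and *Hspa1b* together were 2.29 times as high in cells labelled TGFβR-KO as in all TGFβR-WT cells, against 2.67 times with the cells as they were.

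Within the pretumorigenic cluster, 7 of the 10 chaperone genes were called higher in cells labelled TGFβR-KO than in both TGFβR-WT sets and none lower, where 4.86% of tested genes were called higher and 13.8% lower. The median log2 ratio of the 9 tested genes was 1.46, against -0.15 over all genes, and the summed level of the 10 genes was 2.33 and 2.53 times those of the larger and smaller sets. The 7 were *Hspa1a*, *Hspa1b*, *Dnajb1*, *Hsph1*, *Hsp90aa1*, *Hspd1* and *Hspe1*. Against the larger set alone 9 of the 10 were at least 1.5 times higher, where 17.5% of tested genes were higher and 31.6% lower. Each TGFβR-WT set here rests on few cells, and all values are from 1 sample labelled TGFβR-KO.

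Among these, *Hspa1a* stood at 74.9 in cells labelled TGFβR-KO, 29.3 in the larger and 15.7 in the smaller TGFβR-WT set and 18.7 in cells labelled TGFβR-CA, in the pretumorigenic cluster as in the values that follow. *Hspa1b* stood at 83.6, 44.03, 27.6 and 31.5 in the same order. The level in cells labelled TGFβR-KO was 2.56 and 4.77 times those of the TGFβR-WT sets for *Hspa1a*, and 1.899 and 3.03 times for *Hspa1b*. The share of cells with *Hspa1a* ran in the same order but spread differently. It had a UMI in 83.9% of cells labelled TGFβR-KO (78.5% to 88.4%) and 77.8% of the larger TGFβR-WT set (57.7% to 91.4%), intervals that overlap, while the smaller set had 34.6% (22.0% to 49.1%) and cells labelled TGFβR-CA 61.4% (50.1% to 71.9%). Tissue-resident TFH cells had *Hspa1a* in 14.4% to 19.5% of cells across the sets. No cell type here is known to lack HSP70, so free RNA could not be measured from it. The tissue-resident TFH shares are given only as a level above which the pretumorigenic cells stood. Some other clusters had lower shares, among them 3.45% (1 of 29) in activated cells of the smaller TGFβR-WT set.

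*Dnajb1*, on chromosome 8 from 83608193 to 83612653, stood at 21.1 in cells labelled TGFβR-KO, 6.04 in the larger and 4.61 in the smaller TGFβR-WT set and 5.02 in cells labelled TGFβR-CA. Its level was thus 3.49 and 4.57 times those of the TGFβR-WT sets, and the other 3 sets lay close together. It had a UMI in 82.6% of cells labelled TGFβR-KO (77.1% to 87.3%), 44.4% (12 of 27 cells) and 50% (26 of 52) of the TGFβR-WT sets and 62.7% of cells labelled TGFβR-CA. *Hsph1*, on chromosome 5 from 149614287 to 149636376, which releases ADP from HSP70, was far scarcer, at 1.39, 0.549, 0.644 and 0.376. It had a UMI in 29.1% of cells labelled TGFβR-KO and in 13.3% to 21.2% of the cells of the other sets.

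Of the HSP90 genes, *Hsp90aa1*, on chromosome 12 from 110690605 to 110702728, stood at 29.6 in cells labelled TGFβR-KO, 10.98 in the larger and 10.6 in the smaller TGFβR-WT set and 4.86 in cells labelled TGFβR-CA. The TGFβR-WT sets were nearly level with each other, cells labelled TGFβR-KO 2.70 and 2.79 times above them, and cells labelled TGFβR-CA below both. *Hsp90ab1*, on chromosome 17 from 45567775 to 45573271, stood at 30.9, 16.7, 22.5 and 18.8, and missed the call because it was 1.37 times the smaller TGFβR-WT set.

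In the mitochondrial pair, *Hspd1*, on chromosome 1 from 55077835 to 55088243, stood at 4.09 in cells labelled TGFβR-KO, 0.988 and 1.73 in the larger and smaller TGFβR-WT sets and 1.54 in cells labelled TGFβR-CA. *Hspe1*, its neighbor from 55088132 to 55091307, stood at 12.9, 3.40, 3.02 and 3.76. Both were thus above every other set, by 2.36 to 4.14 times and 3.80 to 4.28 times over the TGFβR-WT sets. *Hspa8*, the constitutive HSP70 on chromosome 9 from 40800984 to 40810087, stood at 18.7, 6.81, 23.1 and 10.4, so the smaller TGFβR-WT set was above cells labelled TGFβR-KO. *Hspa2*, on chromosome 12 from 76404176 to 76406938, had 16 UMIs in cells labelled TGFβR-KO, 2 in the larger TGFβR-WT set, none in the smaller and 2 in cells labelled TGFβR-CA.

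**Figure D2:**
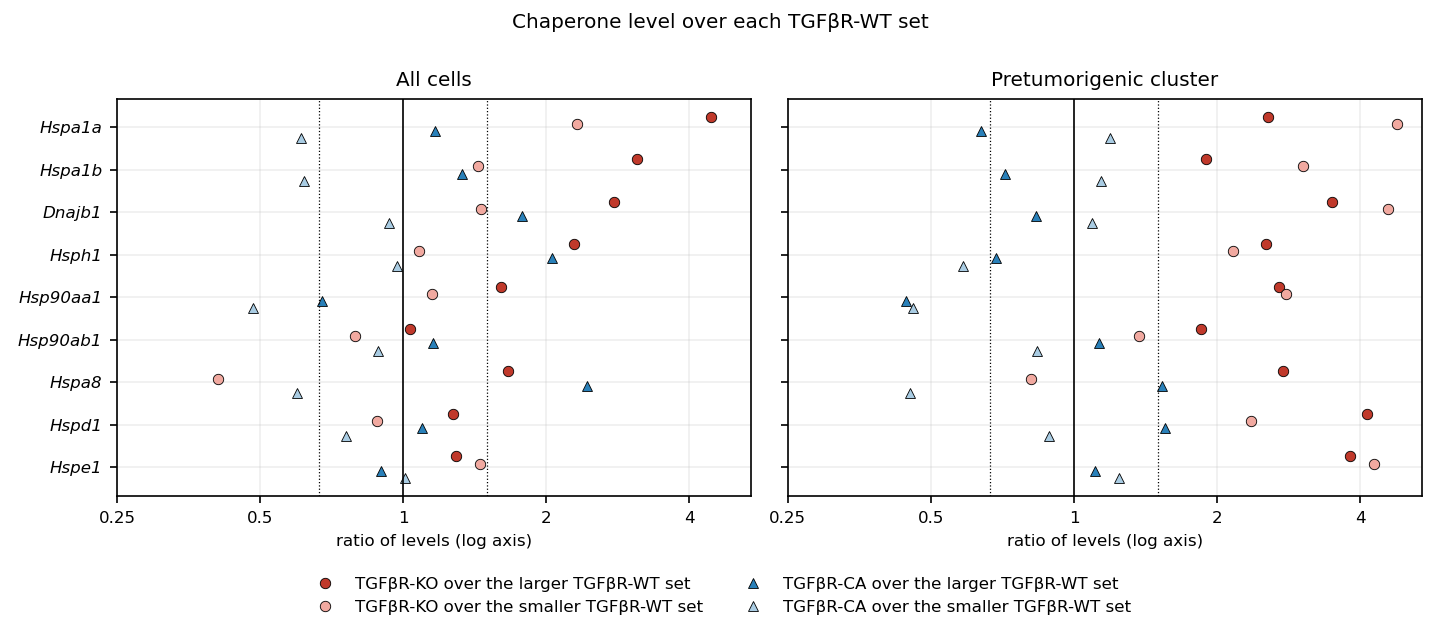
Level of each chaperone gene in cells labelled TGFβR-KO (circles) or TGFβR-CA (triangles) over that of the larger and the smaller TGFβR-WT set, for all cells (left) and the pretumorigenic cluster (right), on a log axis with dotted lines at 1.5 times up and down. In the pretumorigenic cluster both circles lie above 1.5 for 7 genes, and *Hsp90aa1* has both triangles below the lower dotted line.

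Outside the pretumorigenic cluster fewer chaperone genes passed the call. With that cluster left out, 1 of 10 genes, *Hspa1a*, was called higher in cells labelled TGFβR-KO (3.50 and 2.40 times, where 2.91% of tested genes were called higher), and none was called lower (5.8%). Of the 3355 *Hspa1a* UMIs of cells labelled TGFβR-KO outside it, 2037 were in the tumorigenic cluster, where the TGFβR-WT sets had only 2 and 3 cells. In cells labelled TGFβR-CA outside the pretumorigenic cluster none of the 10 was called higher (1.13% of tested genes) or lower (2.81%). In germinal center TFH cells labelled TGFβR-KO none of the 10 was called in either direction, where 3% of tested genes were higher and 6.11% lower. In tissue-resident TFH cells with that label none was called either, where 1.71% were higher and 8.16% lower. In tissue-resident TFH cells *Hspa1a* was at 0.908 in cells labelled TGFβR-KO, 0.837 and 0.935 in the TGFβR-WT sets and 0.728 in cells labelled TGFβR-CA. In activated cells *Dnajb1* was called lower in cells labelled TGFβR-KO, at 0.76 against 1.15 and 1.46 in the TGFβR-WT sets. It was 1 of 10 lower and 0 higher there, where 9.6% of tested genes were lower and 3.55% higher.

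All clusters of cells labelled TGFβR-KO had some UMIs of *Hspa1a* and *Hspa1b*. Outside the pretumorigenic cluster, their levels were highest in 2 further clusters with that label. The tumorigenic cluster, with 361 of these cells and 2 or 3 of each other set, was the second highest for *Hspa1a* (14.4), *Hspa1b* (13), *Dnajb1* (6.97) and *Hsp90aa1* (12.9). *Hsp90ab1* stood at 22.7 there, *Hspa8* at 12.03, *Hspe1* at 6.73, *Hspd1* at 2.70 and *Hsph1* at 0.666. In cycling cells *Hspa1a* stood at 8.396 in the 77 cells labelled TGFβR-KO, against 0.531 in the 41 cells of the larger TGFβR-WT set, and *Hspa1b* at 11.9 and 0.598. *Dnajb1* did not share this difference, at 0.775 and 0.731. Of the cycling cells, 13 of 77 labelled TGFβR-KO had 10 or more *Hspa1a* and *Hspa1b* UMIs (16.9%, 9.31% to 27.1%) against 0 of 41 in the larger TGFβR-WT set (up to 8.60%).

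Cell by cell, the HSP70 pair was concentrated in few cells. Among cells labelled TGFβR-KO, 86.0% of the *Hspa1a* and *Hspa1b* UMIs were in the tenth of cells richest in them, against 79.1% in all TGFβR-WT cells and 74.2% in cells labelled TGFβR-CA. At least 10 UMIs of the pair were found in 291 of the 2975 cells labelled TGFβR-KO, of which 183 were in the pretumorigenic and 59 in the tumorigenic cluster. Within the pretumorigenic cluster 79.6% of cells labelled TGFβR-KO (73.8% to 84.6%), 81.5% of the larger TGFβR-WT set (61.9% to 93.7%), 38.5% of the smaller (25.3% to 53.0%) and 53.01% of cells labelled TGFβR-CA (41.7% to 64.1%) had as many. The median per cell was 38.5 UMIs in cells labelled TGFβR-KO, 19 in the larger and 4 in the smaller TGFβR-WT set and 11 in cells labelled TGFβR-CA. So the larger TGFβR-WT set had as large a share of such cells as the TGFβR-KO label, with fewer UMIs in each.

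The 10 genes together took a median of 1.94% of the corrected UMIs of a pretumorigenic cell labelled TGFβR-KO, and up to 15.1%. The medians were 0.8495% in the larger TGFβR-WT set, 0.806% in the smaller and 0.754% in cells labelled TGFβR-CA, with highest values of 3.85%, 4.98% and 4.59%. In the other clusters of cells labelled TGFβR-KO the medians ran from 0.239% to 0.458%. The pretumorigenic cells labelled TGFβR-KO had a median of 1306 detected genes against 1488 over all cells with that label, and 1.04% mitochondrial UMIs, and the part of these in the result was not tested.

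**Figure D3:**
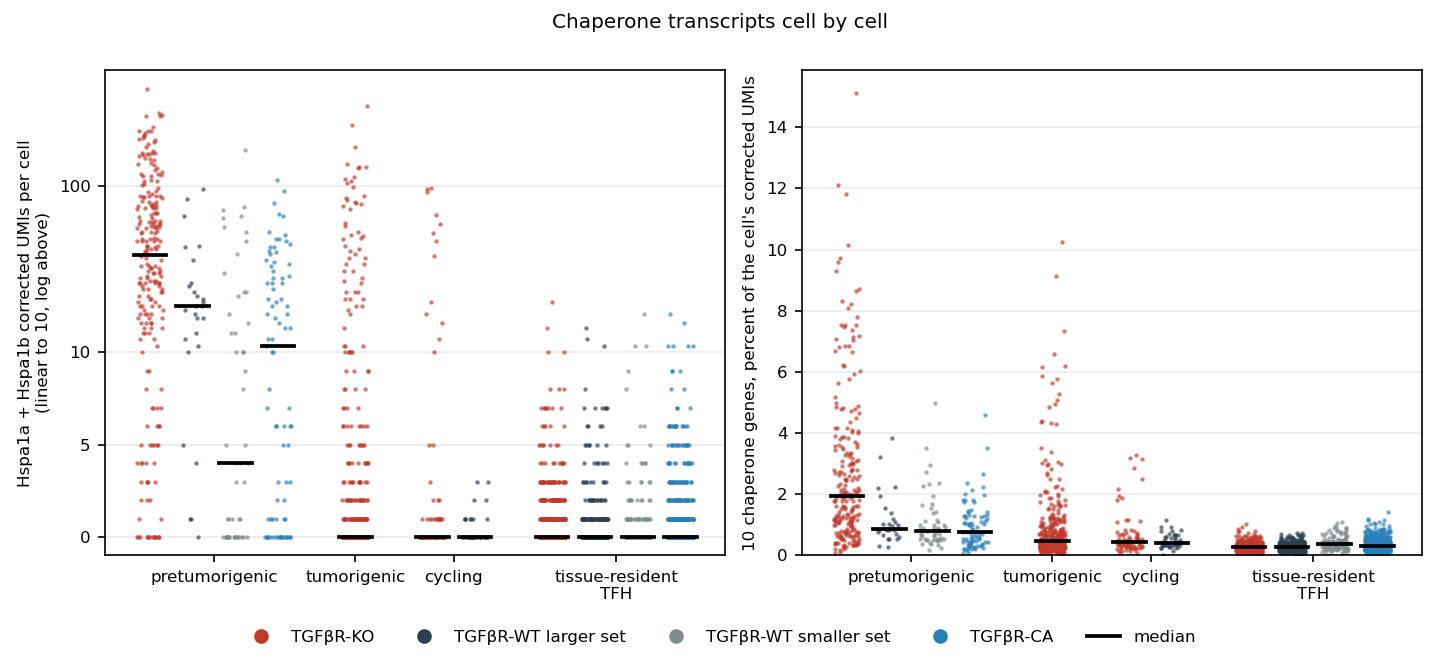
*Hspa1a* plus *Hspa1b* corrected UMIs per cell (left, linear to 10 and log above) and the percent of a cell's corrected UMIs taken by the 10 chaperone genes (right), for groups of at least 20 cells, 1 point per cell with the median as a bar. Pretumorigenic cells labelled TGFβR-KO have medians of 38.5 UMIs and 1.94%, and the tumorigenic and cycling cells with that label have a median of 0 UMIs with a tail of cells above 10.

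Within pretumorigenic cells labelled TGFβR-KO the genes were found together. For the 36 pairs of genes detected widely enough, Spearman correlations were taken across cells of each gene's share of the cell's corrected UMIs. They ran from 0.213 to 0.747, with a median of 0.4095, the highest being that of *Hspa1a* with *Hspa1b*. The median was 0.314 in tumorigenic, 0.0428 in activated and 0.0142 in tissue-resident TFH cells with the same label. In pretumorigenic cells it was 0.152 in the larger and 0.178 in the smaller TGFβR-WT set and 0.172 in cells labelled TGFβR-CA, over fewer pairs. These are descriptions, since the cells of a set share a library and all counts share the depth correction.

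Cells labelled TGFβR-CA were compared with the same TGFβR-WT cells as those of the TGFβR-KO label. Over all cells 0 of the 10 genes were called higher or lower than both TGFβR-WT sets, where 1.21% of tested genes were called higher and 2.73% lower. *Hspa1a* was 1.17 times the larger and 0.609 times the smaller set, and *Hspa1b* 1.33 and 0.618 times. Against the larger set alone 3 of 10 were higher, *Hspa8*, *Hsph1* and *Dnajb1*, and 0 lower, where 3.79% of tested genes were higher and 9% lower. Within the pretumorigenic cluster 1 of 10, *Hsp90aa1*, was called lower (0.443 and 0.458 times), where 14.4% of tested genes were, and 0 higher, against 6.18%. Against the larger set alone *Hspa8* and *Hspd1* were higher and *Hspa1a* and *Hsp90aa1* lower there, where 20.7% of tested genes were higher and 30.9% lower. *Hsp90aa1* was also below both TGFβR-WT sets in activated cells (0.568 and 0.517 times), as 1 of 10 called lower and 0 higher, where 8.81% of tested genes were lower and 4.39% higher. It was below them without a call in germinal center TFH cells (0.724 and 0.542 times) and tissue-resident TFH cells (0.741 and 0.5696 times). In germinal center TFH cells 0 of 10 were called, where 3.19% of tested genes were higher and 5.41% lower. In tissue-resident TFH cells *Hsph1* was called higher, at 0.215 against 0.0713 and 0.1309 in the TGFβR-WT sets, as 1 of 10, where 1.77% of tested genes were higher and 4.35% lower.

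*Hspa8* followed another split of the sets. Over all cells its level was 6.99 under the TGFβR-KO label and 4.21 in the larger TGFβR-WT set, but at 17.1 in the smaller set and 10.2 in cells labelled TGFβR-CA. In tissue-resident TFH cells the levels were 4.24 and 3.40 against 12.3 and 8.84, in germinal center TFH cells 6.09 and 4.95 against 21.1 and 13.2, and in activated cells 4.61 and 4.04 against 16.5 and 9.26. In each of these clusters the smaller TGFβR-WT set and cells labelled TGFβR-CA were thus above the others, the sets in which *Xist* was found. The part of batch and of *Xist*-bearing cells in this split was not tested.

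The smaller TGFβR-WT set was at least 1.5 times above the larger one for 5 of the 9 genes tested, where 10.2% of all tested genes were. These were *Hspa8* (4.06 times), *Hspa1b* (2.15 times), *Hsph1* (2.12 times), *Hspa1a* (1.92 times) and *Dnajb1* (1.91 times), while *Hspe1* was at 0.8899 times. For *Hspa8* the ratio held within clusters, at 3.39 to 4.26 times, whereas *Hspa1a* and *Hspa1b* turned to 0.536 and 0.627 times in the pretumorigenic cluster.

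**Figure D4:**
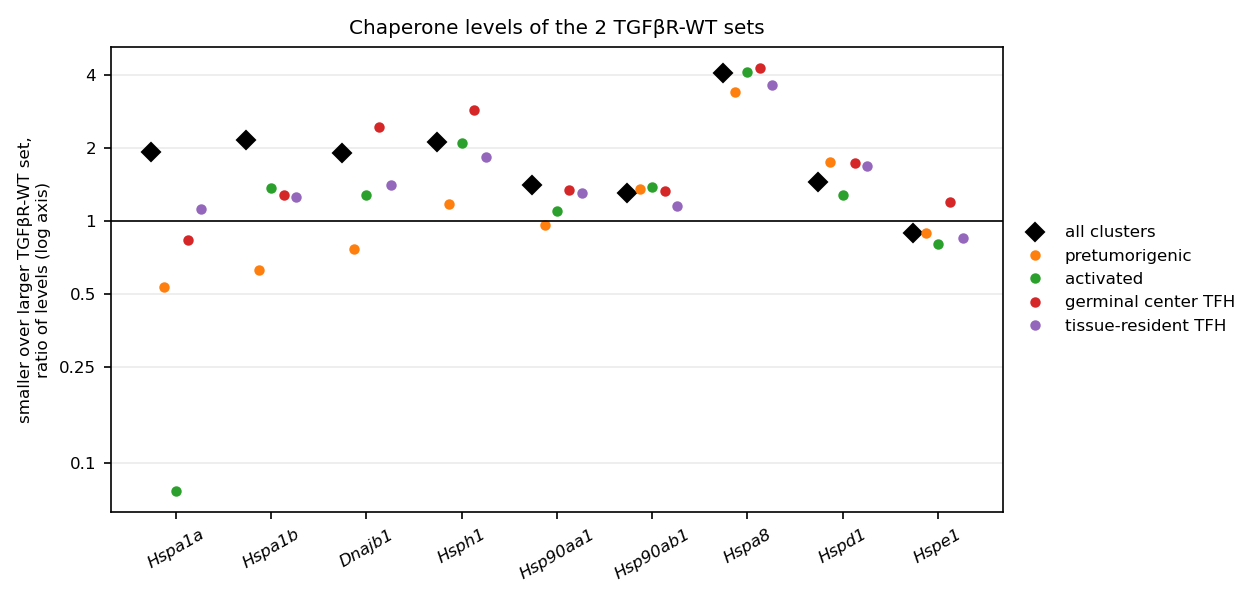
Level of each chaperone gene in the smaller over that in the larger TGFβR-WT set on a log axis, for all cells (diamonds) and for each cluster with at least 20 cells in both (circles). *Hspa8* lies between 3.39 and 4.26 throughout, while *Hspa1a* moves from 1.92 over all cells to 0.536 in the pretumorigenic cluster, and its lowest point, in activated cells, rests on 1 UMI.

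Other genes of the chaperone system were followed in lists. In the pretumorigenic cluster of cells labelled TGFβR-KO, none of 6 other HSP70 genes, 22 J domain genes, and 13 genes of the TRiC chaperonin and prefoldin was called in either direction, where 4.86% of all tested genes were higher and 13.8% lower. Their median log2 ratios were -0.35, -0.13 and 0.31, against -0.15 over all genes. Of 8 nucleotide exchange and BAG genes, *Bag3*, whose product brings HSP70 clients to autophagy, was called higher (1.57 to 5.22 times). Of 16 HSP90 family and cochaperone genes, *Cacybp* was higher (1.69 to 3.696 times) and *Ahsa2* lower, and of 3 tested HSF factors and regulators *Hsf2* was lower. *Ahsa2* stood at 0.22 in the larger TGFβR-WT set, the level that 2 UMIs of *Hspa2* gave there. *Hsf2* was at 0.44 and *Bag3* and *Cacybp* at 0.66 each in that set, and *Bag3* at 0.198 in the smaller. The calls of these genes therefore rest on few UMIs. No small heat shock protein gene could be tested in this cluster, *Hspb11* having no UMI there in the smaller TGFβR-WT set. Of 5 ubiquitin and stress genes, 1 was called lower and 0 higher.

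Among 19 endoplasmic reticulum stress genes, 2 were called higher in that comparison, *Ddit3* and *Herpud1*, and 3 lower, *Creld2*, *Pdia4* and *Pdia3*, where 13.8% of all tested genes were lower. The 2 higher calls rest on few UMIs, with *Ddit3* at 0.22 in the larger and *Herpud1* at 0.0495 in the smaller TGFβR-WT set. Of 22 immediate-early genes, which respond within minutes to signaling or handling, 6 were higher, among them *Nfkbia* (2.45 to 2.96 times) and *Junb* (1.77 to 2.31 times), and *Rhob* was lower. Over all cells labelled TGFβR-KO, 8 of the 22 were higher and 0 lower (2.76% and 5.45% of all tested genes), while of 22 J domain genes only *Dnajc15* was (2.37 to 4.55 times). In the pretumorigenic cluster 13 of the 22 immediate-early genes were at least 1.5 times above the other clusters in each of the 4 sets (1.57% of all tested genes), among them *Dusp1* (8.599 to 20.3 times), *Klf6* (7.797 to 15.6 times) and *Fos* (7.79 to 14.5 times). *Ubb*, which encodes ubiquitin (1.55 to 2.62 times), and *Bag3* (2.23 to 5.595 times) were as well. High levels of immediate-early genes beside the HSP70 pair were thus seen under every label, and their part in the chaperone result was not tested.

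In the pretumorigenic cluster of cells labelled TGFβR-CA, 3 of 6 other HSP70 genes were called lower, *Hyou1*, *Hspa4l* and *Hspa9*, and 0 higher, where 14.4% of all tested genes were lower and 6.18% higher. Of 22 J domain genes *Dnajb11* was higher and 3 were lower, *Dnaja4*, *Dnaja3* and *Dnajc10*, a share near that of all tested genes. In this cluster of the larger TGFβR-WT set *Hyou1* stood at 0.22, *Dnajb11* at 0.11, and *Hspa4l* and *Hspa9* at 0.66 each. The 3 lower J domain genes were at 0.33 to 0.77 there. In the same cells 5 UMIs of *Hsph1* gave 0.549, so all these calls rest on few UMIs. Over all cells with this label *Dnajb11*, a partner of the HSP70 of the endoplasmic reticulum, was 2.16 to 2.49 times as high as in the TGFβR-WT sets.

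Over 23 groups of at least 20 cells (clusters by set) and 7481 genes, the genes outside the list whose log2 level followed that of *Hspa1a* plus *Hspa1b* most closely were *Junb* (Pearson r 0.940), *Klf6* (0.934), *Dusp1* (0.925), *Tnfaip3* (0.913) and *Ppp1r15a* (0.906). Within the list the correlation was 0.855 with *Dnajb1* and 0.219 with *Hspd1*. For *Hspa8* the nearest were *Dnaja1*, its J domain partner (0.927), *Ubb* (0.8404), *Ccdc117* (0.835), *Ptges3*, an HSP90 cochaperone (0.815), and *Rhoa* (0.777), while *Hspa1a* had 0.351. The groups of a set share a library, and the clusters were formed from the expression of these cells. The HSP70 pair, *Klf6* and *Dusp1* were all high in the pretumorigenic groups, so these values only rank the genes.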

How the data were processed

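The authors aligned reads to mm10 with Cell Ranger (version 3.1.0 per the labels) and, in Seurat, filtered cells by detected genes and mitochondrial share, corrected UMI counts for depth with SCTransform, integrated the samples and removed γδ T and epithelial cells. How doublets were treated is not given in the sources used here, and none were called here. What was deposited is ln(1 + corrected UMI count), a natural log scale. The authors' cluster name stands in the first row.

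Here the log was undone, which gave whole numbers within 1e-06 for all 7880276 values above 0, for 13265 genes in 5080 cells. Corrected UMIs were summed per cluster and set, without a pseudocount, in groups of at least 20 cells (Python 3.11.15, numpy 2.4.6, scipy 1.17.1, pandas 2.3.3). Since there was 1 sample per condition or cells that could not be tied to a sample, genes were named by a fixed size (1.5 times both TGFβR-WT sets, at least 200 corrected UMIs) and no test was run. The calling step was run on simulated counts drawn for whole sets with all clusters pooled, which does not check calls within clusters. Likeness used log2(level + 0.1). Thinning drew 2900 corrected UMIs per cell. Named genes are all 10 members and, of each list, at most 5 called in each direction ranked by their ratio nearest to 1, plus the 5 most alike. The members and lists were chosen with earlier results of these data known. The alternatives left out a TGFβR-WT set, cells with a shared barcode, above 5% mitochondrial UMIs or in the top 1% of chaperone share, weighted cells equally, or changed the denominator, the filter or the pseudocount.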

Additional observations from a re-analysis of the deposited data

Results flagged for a closer look

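*Dnajb1* was flagged because its level under the TGFβR-KO label differed from TGFβR-WT in opposite directions in different clusters. It was 4.17 times the level of all TGFβR-WT cells in the pretumorigenic cluster and 0.614 times in the activated cluster, and in each it was past 1.5 times against both TGFβR-WT sets. In the activated cluster it passed narrowly against the larger set (0.66 times, and 0.519 times the smaller), where 9.6% of tested genes were called lower. With 1 sample labelled TGFβR-KO this difference was not tested.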

How the results depend on the processing

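Values here are ratios of the summed level of the 10 genes, and the cause of each change was not tested. Without the larger or the smaller TGFβR-WT set, the ratio over all cells of the TGFβR-KO label to TGFβR-WT (1.34) became 0.952 or 1.66, at TGFβR-WT cluster shares (1.22) it became 1.247 or 1.248, and within the pretumorigenic cluster (2.47) it became 2.33 without the smaller set. For the TGFβR-CA label the ratio over all cells (1.01) became 0.723 or 1.26, at TGFβR-WT cluster shares (1.01) 0.807 or 1.19, and within the pretumorigenic cluster (0.844) it became 0.798 without the smaller set. Within TGFβR-WT, pretumorigenic over other clusters (2.98) became 2.13 or 3.73.

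Without *Hspa1a* and *Hspa1b* the TGFβR-KO ratio was 1.08 over all cells, 1.02 at TGFβR-WT cluster shares and 1.99 within the pretumorigenic cluster, the TGFβR-CA ratio within that cluster 0.749, and pretumorigenic over other clusters 3.5999 (TGFβR-KO, from 6.9017), 1.73 (TGFβR-WT) and 1.21 (TGFβR-CA, from 2.36). Without the richest 1% of cells the 3 TGFβR-KO ratios were 1.22, 1.12 and 2.22, and pretumorigenic over other clusters 5.14, 2.44 and 1.84, in the same orders. With ribosomal, mitochondrial and member genes out of the denominator, the TGFβR-KO ratio was 1.41 over all cells, 1.32 at TGFβR-WT cluster shares and 2.71 within the pretumorigenic cluster.

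Of single genes, *Hspa8* in the pretumorigenic cluster of the TGFβR-CA label turned from 0.577 to 1.53 without the smaller TGFβR-WT set, and *Hsph1* over all cells of that label from 1.51 to 0.972 without the larger. Genes called higher in the TGFβR-KO label fell from 206 to 66 with a pseudocount of 0.5 per 10000, and lower ones from 407 to 204 or 71 with 0.1 or 0.5 and rose to 890 with no filter. For the TGFβR-CA label 90 higher genes became 36, 6 and 253, and 204 lower genes 65, 25 and 482. The alternatives within the pretumorigenic cluster, and those for lower genes and for the genes of the TGFβR-CA label, were chosen after seeing the data. Thinning each cell to 2900 corrected UMIs changed shares of cells in the pretumorigenic cluster by -8.43 to 0 percentage points and kept the order of the 4 sets for 8 of 10 genes, not for *Hspa8* and *Hspd1*. Over all cells (-12.4 to -0.564 points) it kept it for 6 of 10, not for *Hspa1a*, *Hspa1b*, *Hsp90ab1* and *Hspe1*, and in tissue-resident TFH cells also for 6 of 10. Calls against the larger TGFβR-WT set alone were likewise chosen after seeing the data. No paired analysis was possible because TGFβR-WT cells could not be tied to their samples and there was 1 sample of each other condition.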
